A study of Arabidopsis thaliana with 24 samples.

Results

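The ago5 ago9 double mutant was compared with the wild type in sorted stem-cell nuclei of seedlings of the thale cress Arabidopsis thaliana, by bisulfite sequencing. The labels call the genotypes ago59 and wt21, both in the Col-0 ecotype. Both mutations are read from the name ago59, and the labels give no allele. The seedlings of both groups were grown on soil under 16 h of light and 8 h of dark and harvested 7 days after germination. From both, 3000 to 4000 nuclei per replicate were collected by mCherry fluorescence, a red protein marker, so both genotypes carried a reporter, whose promoter the labels do not name. Of the 24 samples of the series, 8 belong to this comparison, 4 per genotype, made up of 2 replicates that were each sequenced in 2 runs. The deposited table has 1 pooled column per genotype and context, so each genotype is a single pool here, and the spread between replicates is unknown. Every nuclear feature with at least 10 cytosine calls in both pools was kept, which gave 55591 of 68992 features in CG, 54825 in CHG and 65220 in CHH (H is A, C or T). In all, 65324 features were measured in at least 1 context and 52137 in all 3.

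ARGONAUTE (AGO) proteins bind small RNAs and use them to find matching nucleic acids. AGO9 belongs to the group of AGO4, whose members carry small RNAs in RNA-directed DNA methylation, the plant pathway that brings the methyltransferase DRM2 to matching DNA in every cytosine context. AGO5 belongs to the group of AGO1, and both proteins are known mainly from reproductive tissue. Once set, CG methylation is copied by MET1, CHG methylation by CMT3 in a loop with histone H3 lysine methylation, and CHH methylation of long heterochromatic elements by CMT2.

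The level of a feature is the percentage of its cytosine calls that were methylated, and differences are ago59 minus wt21 in percentage points. Each ± gives the half-width of a 95% interval that covers only counting error. Calls that lie on 1 read depend on each other, and differences between plants, sorts and libraries are not covered, so a difference larger than its half-width is a difference between 2 pools and not a test of genotype. In a pool of nuclei, fewer methylated nuclei and a lower level in every nucleus cannot be told apart. The pools were of similar depth and background. The wt21 pool held 303354876 calls and the ago59 pool 265294031. Chloroplast DNA, taken as unmethylated, had a CHH level of 0.303% in both pools, and CHG levels of 0.283% in wt21 and 0.272% in ago59. The mCherry feature had 0 calls in both pools, so the reporter could not be checked, and methylation calls hold no expression by which to check the cell type.

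The elements whose CHG or CHH level stood farthest apart between the pools by the naming rule are shown for the cytosines behind those levels. The stretches below are from RefSeq's TAIR10.1 assembly, plus strand, and capitals mark a cytosine of the named context, or a G that pairs with such a cytosine on the other strand. AT1TE93275 (chr1:28515491-28515690, the middle 200 of its 1057 bases) had the largest CHG loss, AT4TE20320 (chr4:4880986-4881185, the middle 200 of 359) the largest CHG gain, AT1TE49810 (chr1:15174044-15174243, the middle 200 of 1362) the largest CHH loss, and AT5TE91835 (chr5:25528822-25529112, all 291 bases) the largest CHH gain. The CHG context is marked in AT1TE93275 and AT4TE20320, and the CHH context in AT1TE49810 and AT5TE91835.
AT1TE93275: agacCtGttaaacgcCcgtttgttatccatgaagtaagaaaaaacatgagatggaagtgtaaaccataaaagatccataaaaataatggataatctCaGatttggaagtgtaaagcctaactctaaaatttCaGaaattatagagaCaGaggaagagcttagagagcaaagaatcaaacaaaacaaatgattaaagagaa
AT4TE20320: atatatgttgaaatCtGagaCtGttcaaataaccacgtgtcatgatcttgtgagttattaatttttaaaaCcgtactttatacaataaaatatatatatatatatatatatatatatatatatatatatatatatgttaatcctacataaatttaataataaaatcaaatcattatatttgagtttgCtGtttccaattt
AT1TE49810: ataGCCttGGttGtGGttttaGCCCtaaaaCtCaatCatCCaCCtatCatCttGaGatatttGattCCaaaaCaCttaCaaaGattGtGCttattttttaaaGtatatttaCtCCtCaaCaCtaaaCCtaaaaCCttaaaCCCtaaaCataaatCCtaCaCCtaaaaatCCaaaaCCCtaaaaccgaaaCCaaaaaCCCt
AT5TE91835: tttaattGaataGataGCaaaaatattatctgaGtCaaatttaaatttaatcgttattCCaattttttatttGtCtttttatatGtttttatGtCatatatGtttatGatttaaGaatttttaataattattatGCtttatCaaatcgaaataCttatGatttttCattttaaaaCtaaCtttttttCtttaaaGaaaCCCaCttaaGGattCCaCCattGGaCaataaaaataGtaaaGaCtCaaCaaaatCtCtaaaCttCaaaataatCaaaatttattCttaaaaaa
AT1TE93275 has 63 CHG and 92 CG cytosines over its whole length, counting both strands, and AT4TE20320 has 11 CHG and 4 CG cytosines. The level of AT4TE20320 therefore rests on few positions. AT5TE91835 is 19.2% G or C and has 50 CHH cytosines.

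CHG methylation was lower in the ago59 pool in every class of feature. Transposable elements went from a mean level of 27.4% in wt21 to 26.1% in ago59, a difference of -1.34 ± 0.128 points over 17837 elements. Transposable element genes, the annotated open reading frames of such elements, went from 44.1% to 42.0%, a difference of -2.08 ± 0.136 points over 3781 features. Genes went from 2.45% to 2.33%, a difference of -0.125 ± 0.0224 points over 32310 genes. Measured against the wt21 level, these differences are -4.87%, -4.72% and -5.10%, so the difference in points was larger where the starting level was higher. Weighted by calls, so that long features count more, the relative differences were -4.75%, -4.62% and -3.15%, and the difference in genes was -0.0318 points. Pseudogenes differed by -0.486 ± 0.281 points. The median difference was 0 among transposable elements and among genes and -1.88 points among transposable element genes. Of the transposable element genes that were unequal in the pools, 70.7% were lower in ago59, and of the unequal transposable elements 60.1%.

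In CG, transposable elements differed by -0.478 ± 0.117 points from 54.4%, and transposable element genes by -0.900 ± 0.111 points from 77.7%. Genes differed in CG by -0.0377 ± 0.0250 points from 12.9%. In CHH, transposable elements differed by -0.123 ± 0.0472 points from 6.63%, transposable element genes by -0.294 ± 0.0389 points from 6.88%, and genes by -0.0176 ± 0.0075 points from 0.791%. Relative to the wt21 level, CG differed by -0.878% in elements and -1.16% in transposable element genes, and CHH by -1.85% and -4.27%. Each is closer to 0 than the CHG value of the same class. In transposable element genes the intervals overlap, at -4.27 ± 0.565% in CHH and -4.72 ± 0.308% in CHG. Weighted by calls these were -4.51% and -4.62%, so CHH and CHG are not told apart in this class. Pseudogenes did not keep that order, with -0.234% in CG, -3.57% in CHG and -5.0% in CHH, of which the CG difference was within its half-width.

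The single-mutant stem pools were set beside the double mutant over the features with at least 10 calls in all 4 stem pools. All 3 comparisons use the same wt21 pool. In CHG of transposable elements, ago5 differed from wt21 by -0.702 ± 0.123 points, ago9 by -0.144 ± 0.129 and ago59 by -1.30 ± 0.123. The double mutant was lower than ago5 by a difference of -0.599 ± 0.126 points and lower than ago9 by a difference of -1.16 ± 0.132. The same order held in CHG of transposable element genes, at -1.34 ± 0.131, -0.278 ± 0.140 and -2.08 ± 0.134 points. CHH did not keep one sign: transposable element genes differed by -0.148 ± 0.0366 points with ago5, 0.109 ± 0.0413 with ago9 and -0.299 ± 0.0380 with both mutated. In CG of transposable elements, ago5 and ago9 differed by -0.309 ± 0.111 and -0.312 ± 0.117 points and ago59 by -0.494 ± 0.112. CG of genes was closest to wt21 in the double mutant, at -0.0393 ± 0.0240 points against -0.0997 ± 0.0235 in ago5 and -0.0773 ± 0.0251 in ago9.

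**Figure D1:**
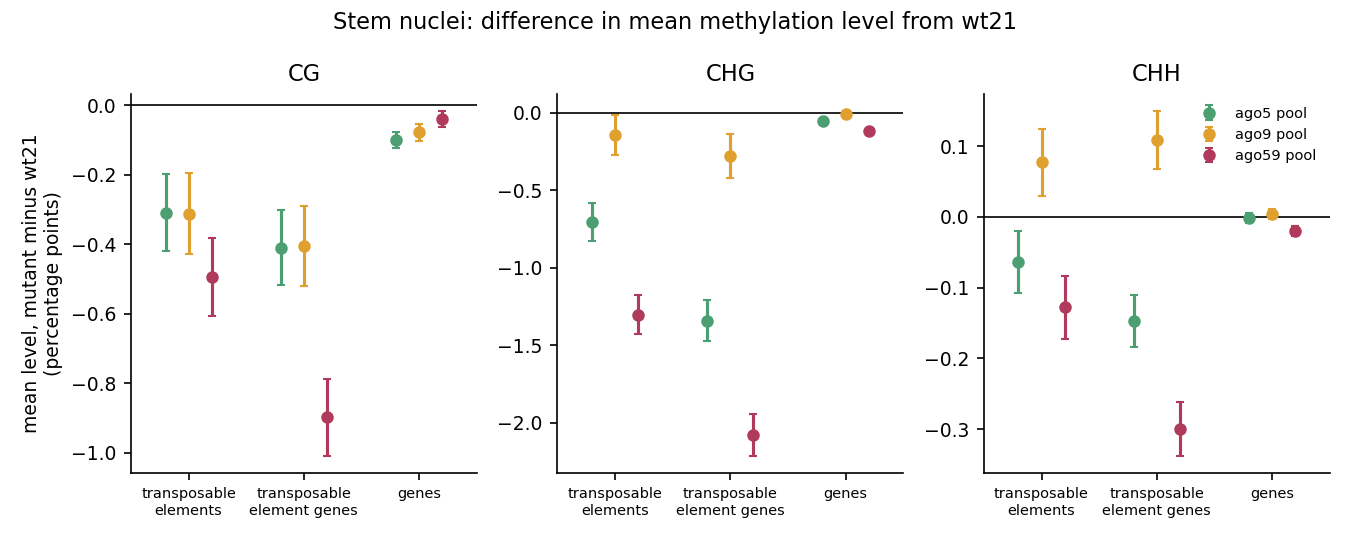
Difference of the mean methylation level from wt21 in the ago5, ago9 and ago59 stem pools, in percentage points (y axis, a scale of its own in each panel), for 3 classes of feature in CG, CHG and CHH. Points are differences over features with at least 10 calls in all 4 stem pools and bars are 95% counting half-widths; ago59 is lowest in CHG in all 3 classes, at -1.30 points in transposable elements and -2.08 in transposable element genes.

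The CHG difference ran through the regions rich in transposable elements. The nuclear genome was divided into 240 windows of 500 kb. By element content alone, and not by distance to a centromere, these are called arm or pericentromeric here. The 45 pericentromeric windows had at least 40% of their bases in transposable elements. Elements in all 45 of these windows had a lower mean CHG level in ago59, and in 38 of them the difference was larger than its half-width. These window differences ran from -4.76 to -0.348 points, with a median of -1.81. Of the 168 windows of the arms with at least 20 elements, 112 were lower and 56 higher, and 17 and 3 of these were beyond their half-widths. In CG, 40 of the 45 pericentromeric windows were lower and 16 of them beyond the half-width. In CHH, 31 were lower and 14 higher, and only 6 and 1 were beyond the half-width.

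**Figure D2:**
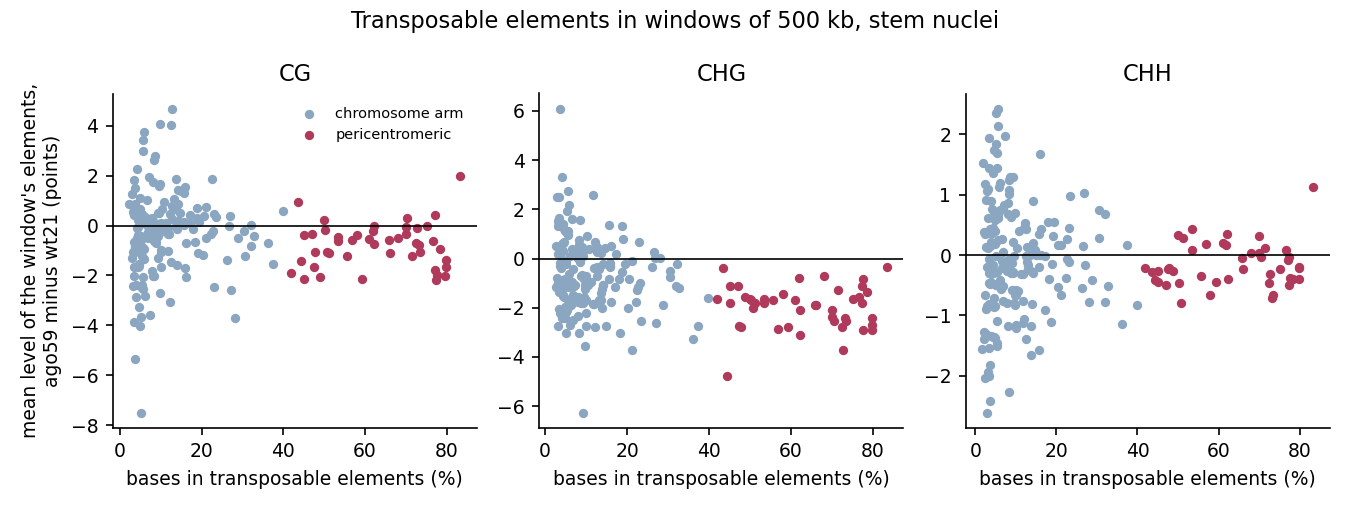
Mean difference in level of the transposable elements in each window of 500 kb, ago59 minus wt21 in percentage points (y axis), against the percentage of the window's bases in transposable elements (x axis). Each point is a window with at least 20 measured elements, in red where elements make up at least 40% of the bases; in CHG all 45 red points are below 0, from -4.76 to -0.348 points.

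Per element, CHG differed by -1.96 ± 0.189 points in pericentromeric windows, from 38.2%, and by -0.796 ± 0.173 points on the arms, from 18.1%. Relative to those levels the differences were -5.13% and -4.40%. Elements of up to 500 bp differed by -1.16 ± 0.219 points, those of over 2000 and up to 4000 bp by -2.25 ± 0.298 and those over 4000 bp by -1.97 ± 0.138. Over the 5 length classes the relative difference lay between -4.17% and -5.61%. All 5 chromosomes were lower in CHG, from -1.12 ± 0.289 points on chromosome 2 to -1.50 ± 0.273 on chromosome 5. Elements overlapping a gene differed by -0.519 ± 0.254 points from 13.7%, those within 1000 bp of a gene by -1.28 ± 0.225 from 23.1%, and those farther away by -1.75 ± 0.193 from 37.0%.

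Elements were then sorted by their mean level in the ago5 and ago9 pools, which enter neither side of the difference. Each of these pools shares a mutation with ago59, so an element that moved in the single mutants was sorted by its moved level. How far this shapes the trend with level was not tested. Elements with almost no CHG methylation, 0 to 5%, differed by -0.0534 ± 0.145 points. Elements at 20 to 40% differed by -2.15 ± 0.342 points and those at 40 to 60% by -2.12 ± 0.213. At 60 to 80% the difference was -1.57 ± 0.728 points, and for the 64 elements above 80% it was -0.398 ± 3.10. Relative to the wt21 level, the difference was -6.49% at 5 to 20% and also at 20 to 40%, -4.30% at 40 to 60% and -2.51% at 60 to 80%. The difference in genes also depended on their level. The 30225 genes at 0 to 5% CHG differed by -0.0130 ± 0.0139 points, and the 689 genes at 20 to 40%, levels otherwise seen in transposable elements, by -2.22 ± 0.504. Transposable element genes at 20 to 40% differed by -2.50 ± 0.421 points and those at 40 to 60% by -2.21 ± 0.148.

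CG of elements differed by -0.794 ± 0.163 points in pericentromeric windows and by -0.202 ± 0.166 on the arms, which is -1.07% and -0.540% of the wt21 level. Elements over 4000 bp differed by -0.961 ± 0.116 points and those of up to 500 bp by -0.367 ± 0.196. Elements at 80 to 100% CG in the ago5 and ago9 pools differed by -0.971 ± 0.153 points, and those at 20 to 40% by -0.0878 ± 0.707. Genes at 20 to 40% CG, the usual range of gene-body methylation, differed by 0.0499 ± 0.0688 points over 4506 genes. Genes at 80 to 100% CG differed by -0.619 ± 0.334 points over 1038 genes.

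CHH was lower in ago59 mainly in long elements, with a difference of -0.305 ± 0.0374 points from 7.93% above 4000 bp and -0.283 ± 0.0730 points from 7.77% over 2000 and up to 4000 bp. Elements of up to 500 bp differed by only -0.0822 ± 0.0745 points from 6.24%. On the arms, elements over 1000 bp differed by -0.336 ± 0.0859 points and shorter ones by -0.0456 ± 0.0717, intervals that do not overlap. In pericentromeric windows these values were -0.157 ± 0.0487 and -0.176 ± 0.0997. Elements at 5 to 10% CHH differed by -0.322 ± 0.0689 points, whereas the 1728 elements above 20% differed by -0.0333 ± 0.312. Elements within 1000 bp of a gene differed by -0.245 ± 0.0803 points, those overlapping a gene by 0.0728 ± 0.0935 and those farther away by -0.104 ± 0.0731. Chromosomes 1 to 4 differed by -0.155 to -0.192 points, each beyond its half-width, and chromosome 5 by 0.0539 ± 0.100.

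**Figure D3:**
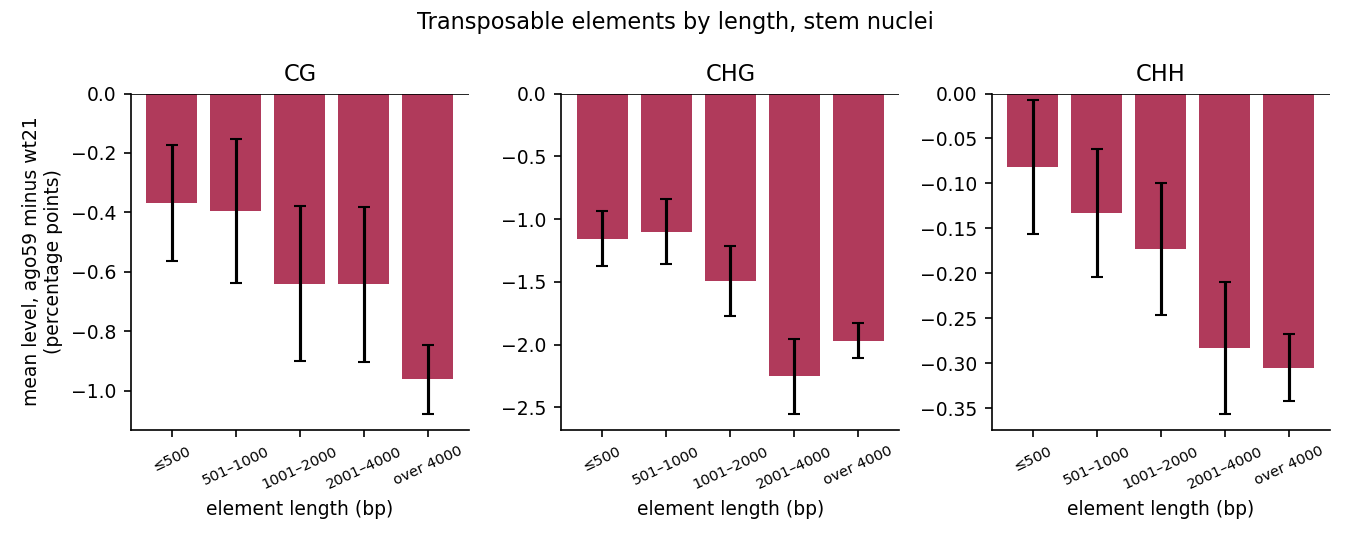
Difference of the mean level of transposable elements between ago59 and wt21, in percentage points (y axis, a scale of its own in each panel), by element length in bp (x axis). Bars start at 0 and error bars are 95% counting half-widths; elements over 4000 bp differed by -0.961 points in CG, -1.97 in CHG and -0.305 in CHH.

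Counts of single features leaned to losses in CHG and were closer to even in CG and CHH. Over all nuclear features, CHG was at least 10 points lower in 2858 of 54825 (5.21%) and higher in 1825 (3.33%), CG lower in 2655 of 55591 (4.78%) and higher in 2395 (4.31%), and CHH lower in 1393 of 65220 (2.14%) and higher in 1376 (2.11%). In CHG, 2307 of 17837 transposable elements were at least 10 points lower (12.9%) and 1543 higher (8.65%). Among transposable element genes 235 were lower (6.22%) and 101 higher (2.67%), and among genes 282 were lower (0.873%) and 155 higher (0.48%). In CG, 2119 transposable elements were lower (11.4%) and 1927 higher (10.3%), 120 transposable element genes lower (3.17%) and 86 higher (2.27%), and 373 genes lower (1.16%) and 342 higher (1.06%). When differences were centred on the median of transposable element genes, their CHG split became 158 lower and 150 higher and their CG split 92 lower and 107 higher. In CHH the counts were nearly even, at 1340 lower (4.81%) and 1320 higher (4.74%) among transposable elements, 12 (0.315%) and 8 (0.21%) among transposable element genes, and 36 (0.11%) and 41 (0.126%) among genes.

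Features are named as called below when they also passed Fisher's exact test on their calls, Benjamini-Hochberg adjusted over the context at 0.05. This limits the expected share of named features that counting error of independent calls could give, but does not remove all of them. It compares the 2 pools only. Over all nuclear features this left 167 lower (0.305%) and 42 higher (0.0766%) in CHG, 480 (0.863%) and 405 (0.729%) in CG, and 685 (1.05%) and 689 (1.06%) in CHH. In CHG, 91 transposable elements were called lower (0.51%) and 22 higher (0.123%), 41 transposable element genes lower (1.08%) and 1 higher (0.0264%), and 33 genes lower (0.102%) and 18 higher (0.0557%). In CG the calls ran both ways, with 240 transposable elements lower (1.29%) and 202 higher (1.08%), 54 transposable element genes lower (1.43%) and 27 higher (0.713%), and 169 genes lower (0.524%) and 158 higher (0.489%). In CHH, 652 transposable elements were lower and 652 higher (2.34% each), 6 transposable element genes lower (0.157%) and 3 higher (0.0787%), and 25 genes lower (0.0766%) and 31 higher (0.0949%).

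The genes called in CG were short. Those lower in CG had a median length of 916 bp and those higher of 1024 bp, against 1832 bp over all genes measured, and 74.6% and 74.7% were protein coding, against 83.9%. Their median CHG difference was -0.124 points in the lower and 0.181 points in the higher genes. CHG moved with CG by at least 10 points in 19 of 167 genes lower in CG and in 18 of 158 higher in CG (11.4% each), where 0.861% and 0.471% of all genes were that much lower and higher in CHG. The shares over all genes are not matched to the called genes in level or length. The median wt21 CG level was 34.5% in the lower and 16.4% in the higher genes, against 2.23% over all genes. Of transposable elements lower in CG, 68 of 212 were also at least 10 points lower in CHG (32.1%), against 12.4% of all elements measured in both contexts. Of those higher in CG, 26 of 170 were also that much higher in CHG (15.3%), against 8.06%. The contexts were read from the same DNA molecules, so these values are not independent of each other. Elements called in CHH were short, with a median of 317.5 bp in the lower and 311 bp in the higher set, against 367 bp over all. Of the lower set, 123 had no methylated call in ago59 (18.9%, against 24.4% of all elements), and of the higher set 101 had none in wt21 (15.5%, against 21.8%). A called element needs at least 10 points in the other pool, which most of all elements did not have. The median wt21 CHH level was 24.4% in the lower set and 4.29% over all elements. As for genes, the shares over all elements are not matched to the called elements in level.

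The sperm pools of the same genotypes, from pollen of plants 35 days after germination, are separate libraries and share no pool with the stem comparison. Whether they came from the same plant lines is not given in the sources used here. They were used to see which called features differed the same way there. Of the genes called lower in CG in stem nuclei, 152 of 168 measured were also lower in ago59 sperm (90.5%), against 48.6% of all genes, and 140 of 158 called higher were also higher (88.6%), against 46.8%. At least 10 points in the same direction were reached by 71 (42.3%, against 0.959% of all genes) and 82 (51.9%, against 1.05%) of them, and none had 10 points in the opposite direction. Most genes have little CG methylation, with a median wt21 level of 2.23% in stem nuclei, and few can be 10 points lower. The called genes had medians of 34.5% in the lower and 16.4% in the higher set, so all genes are not a matched background. Transposable elements called in CG shared their direction at 142 of 231 (61.5%, against 41.6% of all elements) for the lower and 138 of 185 (74.6%, against 39.8%) for the higher. The elements in neither background share were equal in the 2 sperm pools, whereas only 14 and 4 of the called elements were equal. All elements are thus not a matched background here either, and the contrast is larger than among unequal elements.

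In CHG, 68 of 84 elements called lower were lower in sperm (81.0%), where 58.8% of all elements were lower. For transposable element genes the share was 34 of 41 (82.9%), near the 84.1% of all such genes that were lower in sperm. Of all elements, 27.0% were higher in sperm and the rest equal. The elements called lower in CHG had a median wt21 level of 52.3% in stem nuclei, against 28.2% over all elements. All elements are therefore not a matched background, and enrichment over elements of like level was not tested. Elements called in CHH were near the background in sperm, with 351 of 638 of the lower set lower (55.0%, against 53.4%) and 265 of 631 of the higher set higher (42.0%, against 37.8%). Of genes called lower in CHH, 14 of 25 were lower in sperm (56.0%, against 65.1% of all genes), and of those called higher 14 of 31 were higher (45.2%, against 34.0%). In the sperm pools chloroplast DNA had a CHH level of 1.37% in wt21 and 1.06% in ago59, and CHG levels of 1.26% and 0.974%. Genes had mean CHH levels of 1.25% and 1.10% in sperm, near that uneven background, so their share of lower genes cannot be told from it. Sperm levels were not corrected for it. Over the 14971 transposable elements with at least 10 calls in all 4 sperm pools, CHG of ago59 sperm differed by -2.87 ± 0.135 points from 31.2%, which is -9.23% of the level.

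**Figure D4:**
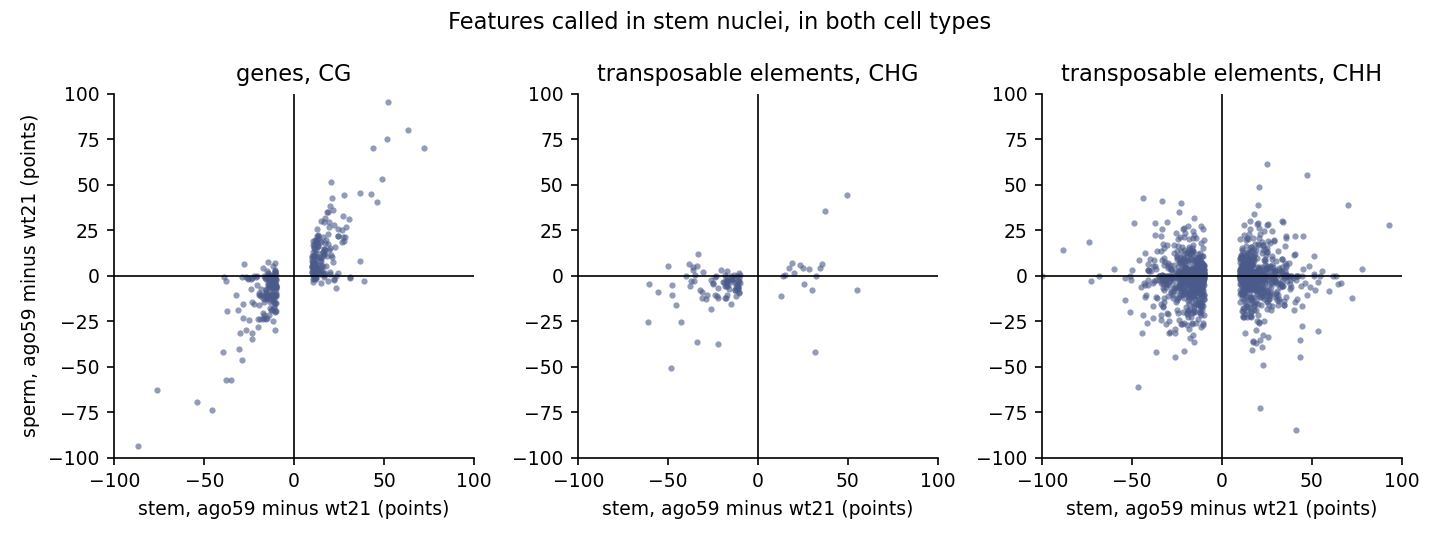
Difference between ago59 and wt21 in sperm (y axis) against the difference in stem nuclei (x axis), in percentage points, for genes called in CG, transposable elements called in CHG and transposable elements called in CHH; each point is a feature with at least 10 calls in both sperm pools. The gap around 0 on the x axis comes from the minimum of 10 points in stem nuclei; 152 of 168 lower and 140 of 158 higher genes keep their direction in CG, against 351 of 638 and 265 of 631 elements in CHH.

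At the largest CG losses few methylated calls were left in ago59. AT1G75945 (chr1:28515245-28515916), a protein-coding gene of unknown function that lies 603 bp from SKP1, a subunit of SCF ubiquitin ligases, coincides with the element AT1TE93275 whose sequence is given above. Its CG level was 87.9% of 231 calls in wt21 and 1.12% of 267 calls in ago59, with the single mutants between, ago5 at 50.9% and ago9 at 35.7%. In sperm wt21 had 97.6%, ago5 44.4%, ago9 52.8% and ago59 4.37%. CHG at this gene went from 61.1% in wt21 to 0.431% in ago59, and CHH from 9.73% to 0.616%, so no context was above 1.12% in ago59. The element AT5TE26080 (chr5:7213958-7214069) lies 43 bp from the protein kinase gene AT5G21222 and within 500 kb of AGO9 (chr5:7192239-7198381). Its CG level was 76.9% in wt21, and lower in ago5 at 21.8% and in ago9 at 9.46%. In ago59 the element had 0 methylated of 130 calls, which allows a level of up to 2.31%. This limit, and each limit given for a count of 0 here, is 3 calls of the total and takes calls as independent. In sperm wt21 had 98.7%, ago5 47.0%, ago9 25.6% and ago59 1.20%. AT3G29633 (chr3:11452509-11453528), of unknown function, differed from both in that the single mutants stayed near wt21. Its CG level was 82.9% in wt21, close to the 81.9% of ago5 and the 85.4% of ago9, and 6.44% in ago59. In sperm wt21 had 92.5%, ago5 93.6%, ago9 92.4% and ago59 29.8%. The short element AT3TE47740 inside it went from 96.3% to 13.4%.

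Gains were found at other loci. The long noncoding RNA gene AT1G07887 (chr1:19963067-19964105), annotated as the natural antisense transcript of MRD1 (AT1G53480), went from a CG level of 4.57% of 1094 calls in wt21 to 76.6% of 645 calls in ago59. The single mutants lay between, at 26.0% in ago5 and 19.4% in ago9, and sperm went from 21.2% in wt21 through 41.7% (ago5) and 44.9% (ago9) to 91.5% in ago59. The levels of the single mutants were closer to wt21 than to ago59. CHG there was 0.353% in wt21 and 37.1% in ago59. The calls overlap MRD1 and AT1G53490 and cannot be assigned to one transcript. AT1G09245 (chr1:2986874-2987393), of the plant self-incompatibility protein S1 family, had 0 methylated of 83 CG calls in wt21 and 0 of 80 in ago5, 35.0% in ago9 and 52.0% in ago59, and 96.2% in ago59 sperm against 0.840% in wt21 sperm. AT3TE60500 (chr3:14812628-14812741), a pericentromeric element far from genes, was at 0 of 51 calls in wt21, 0 of 66 in ago5 and 2.04% in ago9, and at 78.0% in ago59. In sperm it was at 3.64% in wt21 and 100% of 41 calls in ago59. The counts of 0 in wt21 allow up to 3.61% at AT1G09245 and 5.88% at AT3TE60500. AT4TE12225 went from 19.8% to 87.0%, but ago5 at 81.4% and ago9 at 85.5% were as high, so wt21 was the pool that stood apart. AT1TE32815 went from 2.63% to 69.6% with 79.5% in ago5 and 18.2% in ago9.

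**Figure D5:**
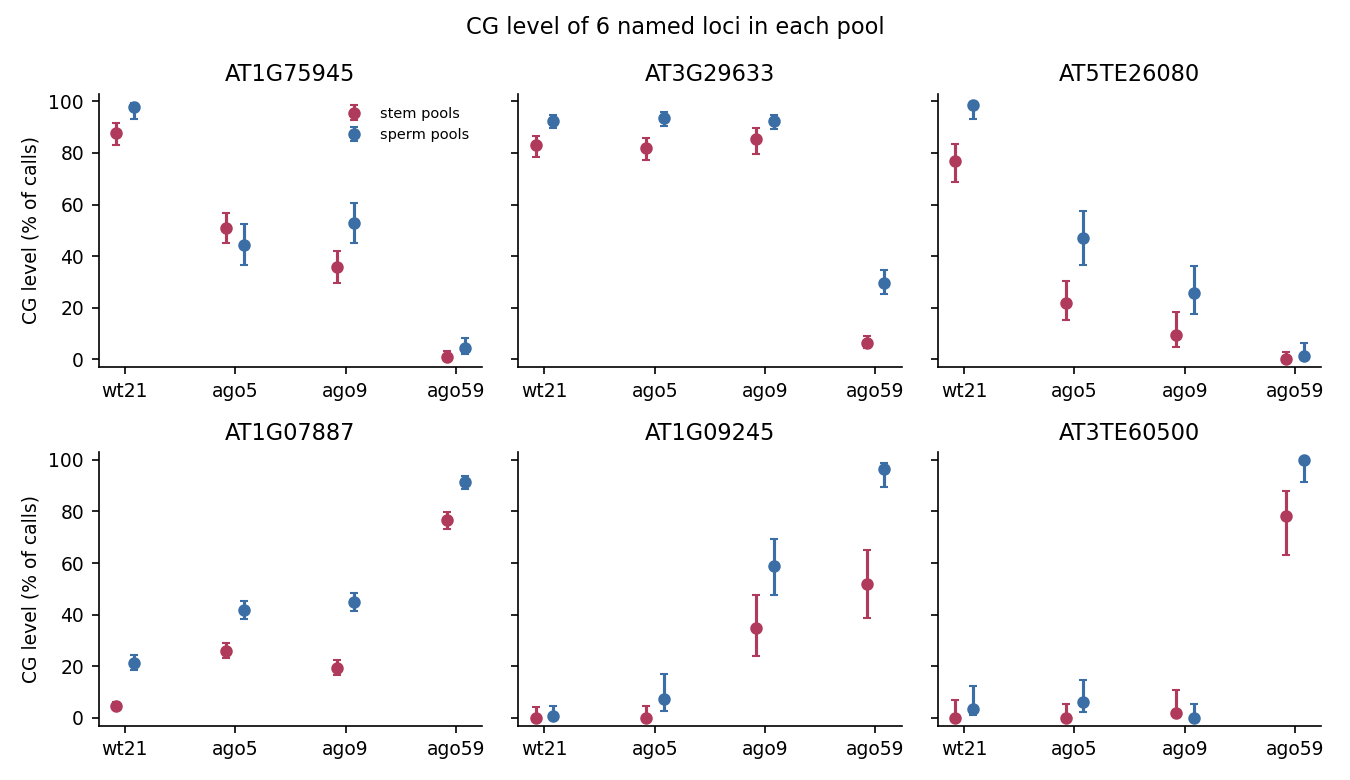
CG level in percent of calls (y axis) of 6 named loci in the wt21, ago5, ago9 and ago59 pools (x axis), stem pools in red and sperm pools in blue; bars are Wilson 95% intervals for counting error, which at 0 reach higher than the limit of 3 calls. AT1G75945 and AT5TE26080 descend over the genotypes to 1.12% and 0% in ago59 stem nuclei, AT3G29633 falls in ago59 alone, and AT1G07887, AT1G09245 and AT3TE60500 are highest in ago59, at 76.6%, 52.0% and 78.0%.

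The remaining CHG loci rested on fewer calls. AT2TE18055 had a CHG level of 80% of 45 calls in wt21 and 40% of 35 in ago59, with 50% in both of those genotypes in sperm. AT3TE53165 had 75% in wt21 and 37.3% in ago59, and 57.7% and 51.9% in sperm. AT1G36085, annotated as a mutator-like transposase, had 51.7% in wt21 and 17.2% in ago59, with 27.1% in ago5 and 29.8% in ago9, but was higher in ago59 sperm (37.5%) than in wt21 sperm (23.1%). Among the gains, AT4TE20320 went from 8.89% of 45 calls to 43.8% of 64. With 35.7% in ago5 and 37.9% in ago9, the single mutants were closer to ago59, so wt21 was the pool that stood apart. In sperm AT4TE20320 had 0 methylated of 14 calls in ago59, which allows up to 21.4%, and only 4 calls in wt21. AT5TE27090 went from 27.0% to 61.7%, but ago5 at 50% and ago9 at 61.1% were also higher than wt21. AT2TE38580, inside a noncoding exon of the B-box zinc finger gene BBX18, went from 0 of 38 calls to 32.3% of 31. Sperm levels in wt21 and ago59 were 13.9% and 18.2% at AT5TE27090 and 0 of 26 and 0 of 16 calls at AT2TE38580, which allows up to 11.5% and 18.8%. AT2G27315, an egg cell-secreted-like protein gene, went from 0 of 52 calls to 29.4% of 34 in stem nuclei and from 6.90% to 20.0% in sperm.

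At most of the CHH loci with the largest differences, sperm levels gave another picture. Levels of 0 rest on 28 to 85 calls here and allow up to 10.7% at 28 calls and 3.53% at 85, if calls were independent. A read holds many CHH calls, so these levels may rest on few reads and the limits are too narrow. How many reads there were is not given. AT1TE49810 had a CHH level of 78.6% of 42 calls in wt21 and 5.61% of 107 in ago59, but 97.1% and 94.4% in sperm. It is a 1362 bp element with 402 CHH cytosines, so these calls cover only part of it. AT5TE91835, 541 bp from the transcription factor gene NAC102, was at 0 of 36 calls in wt21 and at 79.7% of 59 in ago59, with 4.65% in ago5 and 0 of 28 in ago9. AT3TE46340 went from 100% to 35.0% and AT5TE23125 from 66.0% to 11.8%, with 15.0% and 13.8% in sperm at the latter. AT5TE53495 went from 1.35% to 71.3%, with 45.2% in ago5 and 55.6% in ago9, and from 50.7% to 89.3% in sperm. AT5TE48455 went from 19.0% to 83.3%, with 0 of 51 calls in ago5 and 0 of 65 in ago9. Among genes, the microRNA gene MIR5662, 999 bp from ABI4, had 33.7% of 166 calls in wt21 and 5.46% of 183 in ago59, with ago5 at 15.2% and ago9 at 20.5%. Sperm levels were 3.35% in wt21 and 4.88% in ago59. MIR8166 went from 23.3% to 82.4%, and AT2G23321, 6 bp from WRKY15, from 0 of 85 calls to 54.5% of 66, with 35.7% in ago9 and 0 of 28 in ago59 sperm. AT1G24822 overlaps LpxC2 and went from 28.6% of 70 calls to 0 of 40. LpxC2 has near-identical copies on the same chromosome, so these calls are uncertain.

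None of the 46 genes of the methylation machinery differed by 10 points in any context, where 2.21% of all genes did so in CG, 1.35% in CHG and 0.236% in CHH, so this count is near the background. Of 64 genes in 6 lists, all were measured in the 3 contexts, and 1 passed 10 points (1.56% in CG), QQS, an orphan gene with known natural epialleles. Its CG level was 46.6% in wt21 and 63.7% in ago59, a difference of 17.1 points, and ago5 and ago9 were also higher than wt21, at 61.3% and 58.2%, while its sperm levels were 67.1% in wt21 and 68.8% in ago59. Median CG differences were -0.422 points over the 10 ARGONAUTE genes, -0.190 over 20 genes of RNA-directed DNA methylation, -1.08 over 12 maintenance genes, 0.510 over 4 demethylase genes, -0.0560 over 5 methylation-silenced loci and 0 over 13 shoot meristem genes, beside 0 over all genes. The largest CG shifts of either direction within the machinery were at CLSY2, a chromatin remodeler that guides RNA polymerase IV, from 13.5% to 22.5% CG, and at SUVH4, the histone methyltransferase of the CMT3 loop, from 42.5% to 36.5%. CLSY2 was at 19.3% in ago5 and 19.4% in ago9. The maintenance methyltransferase gene MET1 went from 12.0% to 15.4% CG and CMT3 from 6.57% to 10.9%.

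AGO5 had a CG level of 2.31% in wt21 and 0.936% in ago59, and AGO9 of 2.16% and 3.10%. FWA, a flowering-time gene silenced by methylation of its promoter repeats, went from 14.3% to 11.9% CG over its annotated gene. SDC, a target of non-CG methylation, went from 9.81% to 7.71% CG and from 6.00% to 2.54% CHG. In CHG SDC was also low in ago5, at 2.68%, and in ago9, at 2.25%. ROS1, the demethylase gene that responds to methylation near its promoter, had CG levels of 23.0% in wt21 and 20.5% in ago59. Of the meristem genes, WUS and STM were below 1% in CG in both pools and CLV2 went from 6.01% to 9.14%. CLV2 was at 8.92% in ago5 and 9.29% in ago9, so wt21 was the pool that stood apart. Its sperm levels were 10.1% in wt21 and 9.57% in ago59. Within 500 kb of AGO5, 7 of 391 features were called in CG (1.79%), against 1.59% elsewhere, and within 500 kb of AGO9 7 of 397 (1.76%). In CHG these were 2 of 390 (0.513%) and 4 of 399 (1.00%), against 0.380% and 0.377% elsewhere. Of the other loci named above, AT5TE26080, AT5TE27090 and CLSY2 lie within 500 kb of AGO9, and AT2G27315 within 500 kb of AGO5. Whether their levels depend on that position was not tested.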

How the data were processed

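Per the labels, DNA of sorted nuclei (1 to 5 ng) was made into bisulfite libraries with a low-input kit for whole-genome methylation. The labels list the molecule as RNA, which this protocol contradicts. The submitters' processing notes name Trim Galore, Bismark, bedtools 2.30.0 and the build TAIR10, with no roles. Conversion filters, other read filters, and how replicates and runs were pooled are not given in the sources used here. The authors deposited, per the file headers, whole-number counts of cytosine calls, methylated and total, for every feature in each context, with 1 column per genotype and cell type. A read adds a call for each cytosine it covers. Columns named wt were taken as wt21, since no other wild type is labelled.

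Levels were computed from the counts. Mean differences are unweighted over features with at least 10 calls in both pools, and half-widths come from the binomial variance with 1 call added to each kind. Single levels have Wilson 95% intervals, and a count of 0 has the limit that 3 calls of its total give. Windows and distances to genes were computed from the coordinates in the deposited table. Gene symbols and biotypes were read from TAIR10.1, in which 37799 of 37803 matched locus tags had the table's coordinates. The members and gene lists were chosen with earlier results of these data known. Named features were, per context and direction, the 3 transposable elements or transposable element genes and the 2 genes with the largest difference among those with at least 30 calls in both pools and an adjusted p-value under 0.05 in Fisher's exact test, leaving the larger of overlapping ones. AGO5, AGO9 and members of the lists were named too, some of the latter (such as CLSY2, SUVH4, MET1, CMT3, CLV2 and ROS1) after their values were seen. Reads over features that overlap count in each. Element families were not analysed here. The alternatives were minimums of 5 and 20 calls and of 20 points, weighting by depth, medians, centring, correction for the chloroplast level and removal of overlapping features. The scripts were tested on simulated data. Python 3.11.15, numpy 2.4.6, scipy 1.17.1 and pandas 2.3.3 were used.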

Additional observations from a re-analysis of the deposited data

Results flagged for a closer look

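The unweighted mean CG level of genes differed in opposite directions in the cell types. It was lower in the ago59 stem pool, by a difference of -0.0393 points, and higher in the ago59 sperm pool, by 0.0699 points. Both values exceed their counting half-widths of 0.0240 and 0.0250 points and both are under 1% of the wt21 level. With 1 pool per group, the difference between the cell types was not tested.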

How the results depend on the processing

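No paired analysis was possible because the table has 1 pooled column per genotype, with no replicate numbers, and for the same reason leaving out a replicate could not be run. The median transposable element had 21 CG and 18 CHG calls in wt21, so depth limits the single features, and a change of 10 points in 1 short element is often within counting error. No mean difference that exceeded its half-width turned in sign under another setting. Of all values recomputed, 331 stayed within their half-width, interval or 1.5 times the count, and 72 moved, and the cause was not tested for those below except where the setting itself lowers a count. The 331 include 18 counts centred on the median of all features, which was 0 in each context, so they could not move. The same holds for counts centred on a class median of 0.

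Weighted by depth, so that long features count more, the CG difference became -1.0 points in transposable elements, -1.13 in transposable element genes, -0.00588 in genes and 0.212 in pseudogenes. The CHG difference became -2.04 in transposable elements and -0.0318 in genes, and the CHH difference -0.254 in transposable elements and -0.00790 in genes. The median over features was 0 in CG and CHG of transposable elements and genes, in CHG of pseudogenes and in CHH of transposable elements, -1.88 and -0.255 points in CHG and CHH of transposable element genes, and -0.00643 in CHH of genes. Among features that overlap no other, CHG of genes differed by -0.0919 points and CG of pseudogenes by -0.402. At 5 calls, CHG differed by -1.18 points over all elements, -0.887 up to 500 bp, -1.73 in pericentromeric windows, -1.60 there up to 1000 bp and -1.90 at 40 to 60%. At 20 calls, CHG at 60 to 80% differed by -2.41 points, and CG by -0.487 on chromosome 2 and -0.341 on chromosome 4. Correction for the chloroplast level moved no mean or named locus beyond its interval.

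With at least 20 calls, 1343 transposable elements were lower and 1198 higher in CG, and 1436 and 857 in CHG. A minimum of 20 points lowers every count by construction. In CG it left 770 lower and 630 higher transposable elements, 23 and 11 transposable element genes, and 76 and 80 genes. In CHG it left 790 and 544, 32 and 15, and 60 and 39, and in CHH 378 and 399, 3 and 2, and 5 and 13. With the exact test it left 154 and 133, 12 and 3, and 37 and 39 in CG, 45 lower elements, 8 and 0 transposable element genes and 7 and 9 genes in CHG, and 257 and 273, 2 and 1, and 4 and 10 in CHH.

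Without the exact test, features called by 10 points alone shared their direction in sperm less often. In CG the shares were 71.5% of lower and 69.6% of higher genes and 48.9% and 50.3% of transposable elements, and in CHG 64.1% of lower elements and 50.7% of higher genes.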
